A study of Mus musculus with 2 samples.

Results

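The core naive pluripotency transcription factors are the 10 genes Pou5f1, Sox2, Nanog, Esrrb, Tfcp2l1, Klf2, Klf4, Tbx3, Zfp42 and Prdm14, taken by gene name from 48550 rows of a table of allele-specific nuclear RNA. The RNA came from F121-6, a single female hybrid mouse embryonic stem (ES) cell line that carries 1 chromosome set of the 129 strain and 1 of castaneus (cas). The cells grew in serum and LIF on a layer of mouse embryonic fibroblasts (MEFs) whose division had been stopped with mitomycin C, and the feeders' strain is not in the labels. The samples form 1 group of 2 libraries, and the labels do not tie them to separate cultures, so p-values measure only a spread that may be technical. In each library every gene's reads were split into those from the 129 allele and those from the cas allele, and the comparison was 129 against cas. Library 1 held 28523744 allele reads, 53.6% of them from 129, and library 2 held 31402765, 54.2% of them from 129. A gene was tested where both libraries gave 20 or more allele reads, which 15509 genes did, among them 9 of the 10 factors; Sox2 was listed at 0.

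Naive ES cells hold the state of the epiblast before implantation through a network of transcription factors that bind each other's enhancers. OCT4 (from Pou5f1), SOX2 and NANOG form its centre. ESRRB, TFCP2L1, KLF4 and TBX3 link LIF and Wnt signalling to that centre, and KLF2, related to KLF4, is also part of the network. Zfp42 (REX1) is the network's standard marker gene, and PRDM14 restrains FGF signalling and DNA methylation. Nuclear RNA includes unspliced transcripts, so introns as well as exons can supply allele reads. How many reads a gene can have assigned depends on its length and on the SNPs within it, which are not in the files used here, so levels were not compared between genes and only the alleles of a gene were set against each other.

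The promoters below belong to 4 genes with nearly the same mean allele ratio over the 2 libraries, Klf4, Zfp42, Klf2 and Nanog. They are shown because these are the starts from which their transcripts are annotated. The sequences are the RefSeq reference on GRCm38.p6, the build also called mm10, and show neither allele's own variants. Each runs from 250 bases before to 50 bases after an annotated start, on the gene's strand. Capitals mark matches, on either strand, to any of 7 motifs: the octamer core ATGCAAA, the SOX core CATTGT, the ESRRB motif AAGGTCA, the KLF motif GGGNGTGG, the GC box GGGCGG, the STAT motif TTCNNNGAA and the TATA box TATAAA.
Klf4, minus strand, chr4:55532426-55532725: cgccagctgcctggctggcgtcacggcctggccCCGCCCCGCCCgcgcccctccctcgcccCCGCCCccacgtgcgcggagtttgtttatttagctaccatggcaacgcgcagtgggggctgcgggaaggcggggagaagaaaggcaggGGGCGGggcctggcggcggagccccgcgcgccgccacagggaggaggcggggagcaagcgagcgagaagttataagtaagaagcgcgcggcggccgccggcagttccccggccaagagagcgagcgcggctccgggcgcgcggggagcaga
Zfp42, minus strand, chr8:43306960-43307259: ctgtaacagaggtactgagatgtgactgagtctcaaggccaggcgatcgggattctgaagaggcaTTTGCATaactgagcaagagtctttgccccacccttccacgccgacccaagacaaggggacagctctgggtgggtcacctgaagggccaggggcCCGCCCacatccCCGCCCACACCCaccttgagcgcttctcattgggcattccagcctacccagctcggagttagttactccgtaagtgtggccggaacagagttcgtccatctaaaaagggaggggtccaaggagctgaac
Klf2, plus strand, chr8:72318812-72319111: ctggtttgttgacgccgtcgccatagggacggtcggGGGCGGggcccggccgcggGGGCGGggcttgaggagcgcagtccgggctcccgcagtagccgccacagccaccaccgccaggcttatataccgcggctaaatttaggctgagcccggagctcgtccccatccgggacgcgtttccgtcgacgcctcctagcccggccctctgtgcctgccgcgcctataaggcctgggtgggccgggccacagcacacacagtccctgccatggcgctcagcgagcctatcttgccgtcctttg
Nanog, plus strand, chr6:122707239-122707538: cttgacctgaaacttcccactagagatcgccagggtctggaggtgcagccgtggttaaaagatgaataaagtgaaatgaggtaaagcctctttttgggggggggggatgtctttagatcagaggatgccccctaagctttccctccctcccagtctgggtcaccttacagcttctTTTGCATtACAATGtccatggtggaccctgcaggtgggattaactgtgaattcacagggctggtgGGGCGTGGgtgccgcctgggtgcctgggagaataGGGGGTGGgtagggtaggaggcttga

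In the Nanog promoter an octamer core began at -75 from the start and a SOX core at -67, 1 base apart, in the order and spacing of the composite OCT4 and SOX2 motif. Zfp42 had an octamer core at -185, and its KLF match at -75 overlapped the GC box at -79. Klf4 had 4 GC boxes, the first pair overlapping, and Klf2 had 2, and neither had another of the 7 motifs. Promoters of 8 of the 10 genes were in the RefSeq table, and 3 of the 8 held the octamer core (Nanog, Zfp42 and Sox2), against 4.6% of 32851 promoters. A GC box was in 5 of the 8, against 35.7%, and a KLF match in 4, against 17.6%. The SOX core was in 2 of the 8, against 12.6%, the TATA box in 1, against 13.6%, the STAT motif in 1, against 8.3%, and the ESRRB motif in none, against 4.7%. These matches describe letters in the reference and were not set against the allele ratios.

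Relative to the typical gene, 5 of the 9 tested factors were higher from cas and none passed the test as higher from 129. The 5 were Prdm14, Klf4, Zfp42, Klf2 and Nanog. Over all tested genes 43.9% were called in either direction, 22.0% as higher from cas and 21.9% as higher from 129, at an adjusted p under 0.05 in limma with Benjamini-Hochberg adjustment over all 15509 genes. The count of 5 in 9 stands beside 22.0% in that direction and 43.9% in either, and nothing was read from so short a list about the factors as a set. Ratios are log2(129/cas) of CPM (a gene's reads relative to the scaled total of its allele column) plus 0.1, with each allele column scaled so that the typical gene sits at 0. A negative ratio means more scaled reads from cas, and a gene slightly below 0 can still have more raw reads from 129. Higher from cas or from 129 is meant on this scale unless raw reads or another setting are named. The median ratio over the 9 factors was -0.35, against 0.00 over all tested genes, with -0.13 in library 1 and -0.33 in library 2. The size of the excess was not alike. Prdm14 gave 6.83 times as many scaled reads from cas as from 129 (95% interval 5.58 to 8.35). The other 4 gave between 1.27 and 1.30 times as many. The interval for Prdm14 uses a spread pooled over genes of like abundance. As a log2 ratio it ran from -3.06 to -2.48, and library 1 (-3.19) and library 2 (-2.36) both lay outside it.

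Of these calls, Prdm14 alone held in each setting with a test. With 1 shared library size for both alleles, which leaves the raw balance of reads as it is, the median of all tested genes stood at 0.32 and Prdm14 was the only factor higher from cas, in a setting that called 9.62% of all genes so. Esrrb, Tfcp2l1 and Tbx3 were then called as higher from 129, as were 41.9% of all genes, and 51.5% of genes were called in either direction. With deposited column totals 3 factors were higher from cas (Prdm14, Klf4 and Zfp42) and 1 from 129 (Tfcp2l1), against 16.6% and 27.0% of all genes and 43.6% in either direction. With 1 shared library size Klf4, Zfp42, Klf2 and Nanog stood at -0.05, -0.03, -0.02 and -0.02, which is below that setting's typical gene by about as much as before. Their reads were near even between the alleles, while the typical gene had more reads from 129.

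**Figure D1:**
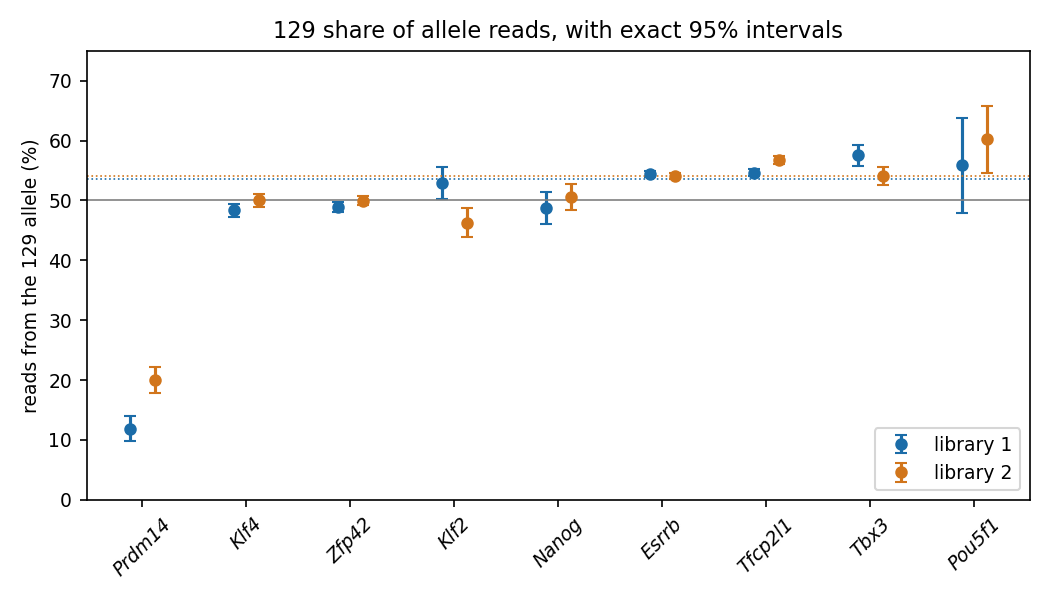
The percentage of allele reads from 129 (vertical axis) for the 9 factors with reads, in library 1 and library 2, with exact 95% binomial intervals; the grey line is 50% and the dotted lines are the share over all reads of each library, 53.6% and 54.2%. Prdm14 stands alone at 11.8% and 19.97%, and the other factors lie between 46.3% and 60.3%.

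**Figure D2:**
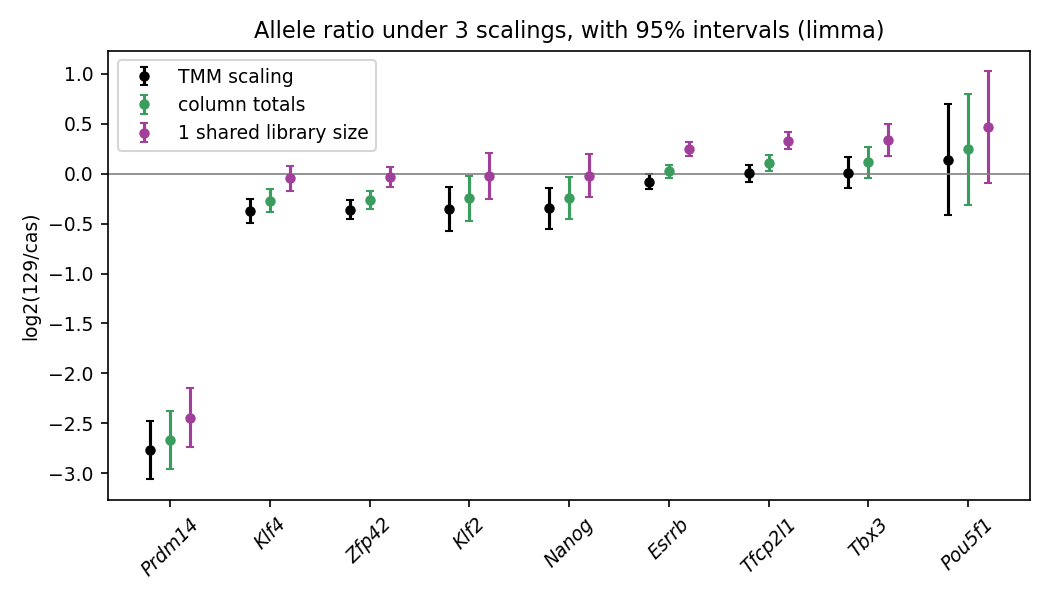
The log2 ratio of 129 to cas for each tested factor with its 95% interval from limma, under TMM scaling, deposited column totals and 1 shared library size. The order of the factors is the same under all 3, and Klf4, Zfp42, Klf2 and Nanog lie near -0.35 under TMM scaling and near 0 with 1 shared library size.

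Pou5f1 encodes OCT4, the POU factor without which the pluripotent epiblast does not form. It lies on chromosome 17 (35506018 to 35510772, plus strand, mm10), with 6 exon blocks that cover 47.3% of its span. It had 90 and 182 reads of the 129 allele, against 71 and 120 of the cas allele in libraries 1 and 2. The 129 column was the higher in both libraries, but the reads were few. The 129 share was 55.9% (exact 95% interval 47.9 to 63.7) in library 1 and 60.3% (54.5 to 65.8) in library 2, and the log2 ratio was 0.14 (SE 0.28, adjusted p = 0.723 in limma). The 95% interval of the ratio ran from -0.42 to 0.70, so at 463 reads an excess of up to 1.33-fold from cas was within the error. The antisense gene Gm19553, which overlaps it on the opposite strand, was listed at 0.

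Sox2, the HMG-box partner of OCT4, was listed at 0 in both alleles of both libraries, so it has no ratio. A count of 0 allows up to 0.105 CPM, relative to all allele reads of the library, in library 1 and 0.0955 in library 2, counting error only. The zero is not a measure of expression, since Rpl13, a ribosomal protein gene that every cell uses, was also listed at 0. Sox2 is a single exon of 2057 bp (chromosome 3, 34650405 to 34652461, plus strand) that lies wholly inside the long noncoding gene Sox2ot on the same strand. Of 416 protein-coding rows wholly inside another annotated gene of the same strand, 394 (94.7%) were listed at 0, against 3692 of 20627 other protein-coding rows (17.9%). What part this position had in the zero was not tested. Sox2ot itself had 865 and 994 reads of the 129 allele, against 575 and 608 of the cas allele, more from 129 in both libraries, and its ratio was 0.32 (SE 0.11, adjusted p = 0.0138), a call that ended without the library block (adjusted p = 0.137).

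Nanog, the homeobox factor that makes ES cells less dependent on LIF, lies on chromosome 6 (122707489 to 122714633, plus strand). It gave 680 and 1091 reads of the 129 allele, against 715 and 1065 of the cas allele. The raw counts were thus close to even, with cas higher in library 1 and 129 in library 2. The 129 share was 48.7% (46.1 to 51.4) and 50.6% (48.5 to 52.7), below the overall share of each library. Relative to the typical gene the ratio was -0.35 (SE 0.11, adjusted p = 0.0036), with -0.37 in library 1 and -0.33 in library 2. With deposited column totals it was -0.24 (adjusted p = 0.0511), with 1 shared library size -0.02 (0.899), and without the library block -0.35 (0.213), so each of these ended the call. The processed pseudogene Nanog-ps1 on chromosome X matched 245 bp of the Nanog transcript at 97.6% identity and had 1 read in all, from cas. Reads shared with a copy cannot be told apart, and the treatment of such reads in the counting is not stated.

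Esrrb, an orphan nuclear receptor and a target of Wnt and GSK3 signalling, had the most allele reads of the 10 factors. Its span is the longest of them, 160512 bp on chromosome 12 (86361117 to 86521628, plus strand), with 3.8% of it exonic. It had 21634 and 20980 reads of the 129 allele, against 18146 and 17760 of the cas allele, so 129 was higher in both libraries by about as much as in the libraries as a whole. The 129 share of 54.4% (53.9 to 54.9) and 54.2% (53.7 to 54.7) varied by 0.16 percentage points (SD, n = 2). The ratio was -0.08 (SE 0.04, 95% interval -0.16 to -0.01, adjusted p = 0.0696), and 0.02 (adjusted p = 0.647) with deposited column totals.

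Tfcp2l1, a CP2-family factor downstream of LIF and STAT3, lies on chromosome 1 (118627945 to 118685168, plus strand). It had 13814 and 14065 reads of the 129 allele, against 11467 and 10710 of the cas allele. The 129 allele was higher in both libraries, and the 129 shares of 54.6% (54.0 to 55.3) and 56.8% (56.1 to 57.4) differed between the libraries beyond their counting intervals. The ratio was 0.00 (SE 0.04, 95% interval -0.08 to 0.09, adjusted p = 0.98), which bounds an excess from cas at 1.06-fold on this scale. The choice of zero decided its call: it was higher from 129 with deposited column totals (0.11, adjusted p = 0.0209) and with an exact binomial test in each library (adjusted p = 0.00405). The 3 small genes annotated inside its span were listed at 0.

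Klf4 and Klf2 encode related zinc finger factors, of which Klf4 responds to LIF and STAT3. Klf4 (chromosome 4, 55527143 to 55532466, minus strand) had 3832 and 3759 reads of the 129 allele, against 4091 and 3759 of the cas allele, more from cas in library 1 and exactly even in library 2. Its 129 share was 48.4% (47.3 to 49.5) and 50.0% (48.9 to 51.1), and its ratio -0.38 (SE 0.06, adjusted p = 8.19e-09), with -0.39 in library 1 and -0.36 in library 2. The call held with deposited column totals (-0.27, adjusted p = 2.34e-05) and ended with 1 shared library size (adjusted p = 0.547) and without the library block (0.0666). A processed pseudogene on chromosome 9, Gm48640, matched 242 bp of the Klf4 transcript at 91.3% identity.

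Klf2 lies on chromosome 8 (72319033 to 72321656, plus strand), spans 2624 bp and is 70.4% exonic. It had 701 and 761 reads of the 129 allele, against 624 and 883 of the cas allele, so 129 was higher in library 1 and cas in library 2. The 129 shares of 52.9% (50.2 to 55.6) and 46.3% (43.9 to 48.7) did not overlap in their intervals. The ratio of -0.35 (SE 0.11, adjusted p = 0.00622) was the mean of -0.13 in library 1 and -0.57 in library 2. Its SE comes from a spread pooled over genes of like abundance, not from Klf2's own libraries. An exact binomial test in each library did not call it (adjusted p = 0.871), nor did the fits with deposited column totals (0.0659), 1 shared library size (0.883) or no library block (0.143), so the call for Klf2 rests on library 2, and without that library its ratio was -0.13.

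Tbx3, a T-box factor of the PI3K and AKT branch, lies on chromosome 5 (119670669 to 119684724, plus strand). It had 1888 and 2309 reads of the 129 allele, against 1394 and 1956 of the cas allele. The 129 shares of 57.5% (55.8 to 59.2) and 54.1% (52.6 to 55.6) did not overlap in their intervals, and the ratio changed sign between the libraries, 0.14 in library 1 and -0.12 in library 2. The mean was 0.01 (SE 0.08, 95% interval -0.15 to 0.16, adjusted p = 0.94). Tbx3os1, which overlaps the start of Tbx3 on the opposite strand, had 248 and 527 reads of the 129 allele, against 193 and 319 of the cas allele (ratio 0.21, SE 0.17, adjusted p = 0.327). The libraries were made by strand, per the labels' protocols, but the sources do not state whether the counting used strand.

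Zfp42, which encodes REX1, a YY1-related zinc finger protein, was the most even between the libraries of the called factors. It lies on chromosome 8 (43295063 to 43306980, minus strand) and had 6711 and 9442 reads of the 129 allele, against 7022 and 9452 of the cas allele. The raw counts were slightly higher from cas in both libraries. The 129 share was 48.9% (48.0 to 49.7) and 50.0% (49.3 to 50.7), and the ratio -0.36 in each library (SE 0.05, adjusted p = 1.79e-12). The call held with deposited column totals (-0.26, adjusted p = 1.25e-07) and in the exact binomial test, and ended with 1 shared library size (0.592) and without the library block (0.0548). A processed pseudogene, Zfp42-ps1 on chromosome 15, matched 266 bp of its transcript at 98.1% identity.

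Prdm14, a PR-domain factor of naive cells and primordial germ cells, was the only factor with a large allelic difference. It lies on chromosome 1 (13113457 to 13127163, minus strand), with 8 exon blocks that cover 18.7% of its span. It had 108 and 279 reads of the 129 allele, against 810 and 1118 of the cas allele. The cas column was far higher in both libraries, and the alleles did not overlap. The 129 share was 11.8% (9.75 to 14.0) in library 1 and 19.97% (17.9 to 22.2) in library 2, so its size differed between libraries beyond the counting intervals. The ratio was -2.77 (SE 0.15, adjusted p = 3.39e-75 in limma), with -3.19 in library 1 and -2.36 in library 2. This SE and adjusted p rest on a spread pooled over genes of like abundance, not on Prdm14's own libraries. Without the library block it was still called (adjusted p = 0.000116), and 95.9% of tested genes had a smaller ratio in size. The 129 allele was still read, with 387 reads in both libraries together.

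**Figure D3:**
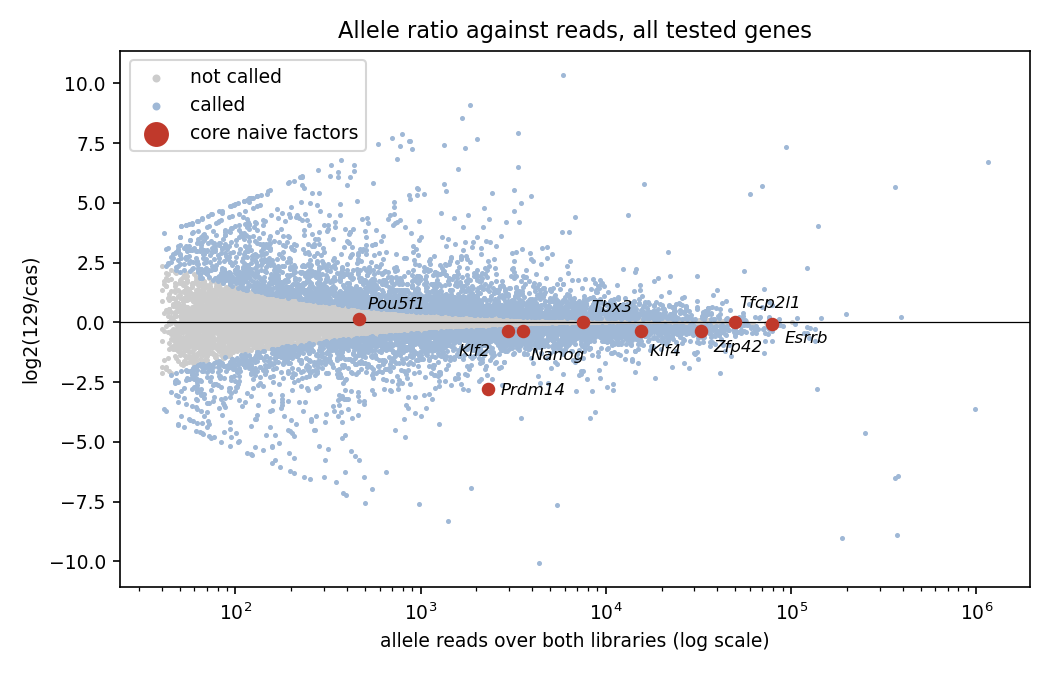
The log2 ratio of 129 to cas (vertical axis) against allele reads over both libraries (horizontal axis, log scale) for all 15509 tested genes, called ones in blue and the 9 tested factors in red. Prdm14 sits at -2.77, near the lower edge of the genes at its depth, while the other 8 lie between -0.38 and 0.14 from 463 to 78520 reads.

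No choice of a common zero changes the order of the ratios. The order of the means over both libraries ran from Prdm14 through Klf4, Zfp42, Klf2, Nanog, Esrrb, Tfcp2l1 and Tbx3 to Pou5f1. Neither library alone gave this order. Prdm14 was 2.39 below Klf4 (SE 0.16, 95% interval 2.08 to 2.71), with 2.79 in library 1 and 2.0 in library 2, both outside that interval. Klf4, Zfp42, Klf2 and Nanog followed in mean steps of at most 0.01, each with an interval on both sides of 0. The steps around Klf2 changed sign between libraries 1 and 2, with 0.23 and -0.21 from Zfp42 and -0.24 and 0.25 to Nanog. Between Nanog and Esrrb the step was 0.27 (SE 0.11, 95% interval 0.04 to 0.49), with 0.33 in library 1 and 0.21 in library 2. Esrrb stood 0.29 above Klf4 (95% interval 0.15 to 0.44) and 0.28 above Zfp42 (0.16 to 0.40), in the same direction in both libraries. From Esrrb to Pou5f1 no step between neighbours had an interval that left out 0.

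The genes around each factor were described from up to 5 tested rows on each side within 1000 kb. Of 76 such neighbours, 16 were higher from 129, 22 higher from cas and 38 not called, with a median ratio of -0.03. Of all tested genes 21.9% were higher from 129, 22.0% higher from cas and 43.9% called in either direction. The split of the neighbours turned with the zero of the scale, with 30 from 129 and 7 from cas under 1 shared library size, and without the library block it was 12 and 8. The region of Prdm14 held 6 neighbours, 5 called as higher from cas and 1 from 129, with a median ratio of -0.3. The nearest, Gm29283, starts 58.3 kb away on the opposite strand and had a ratio of -3.0 (SE 0.22, adjusted p = 9.2e-41), with -2.61 in library 1 and -3.38 in library 2. The difference of Prdm14 from it changed sign between the libraries, -0.57 in library 1 and 1.02 in library 2, and averaged 0.23 (SE 0.26, 95% interval -0.29 to 0.74). Both genes were thus strongly higher from cas in each library, but which of them more so was not settled. On the other side the nearest was Ncoa2, a steroid receptor coactivator gene 246.9 kb away with -0.36 (SE 0.05). With 1 shared library size Ncoa2 had -0.03 and no call. Prdm14 was 2.41 below Ncoa2 (95% interval -2.72 to -2.10), with -2.8 in library 1 and -2.02 in library 2, both outside that interval. Slco5a1, a transporter gene 134.5 kb from Prdm14 beyond Gm29283 and named after its value was seen, was higher from 129 with 0.72.

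Zfp42 went against its neighbours. All 3 of them were called as higher from 129 in the fit with the library block, at 0.37, 0.95 and 1.34, and Zfp42 was below each, in both libraries. Its nearest neighbour Triml2, a tripartite motif gene 126.4 kb away, had 0.37 (SE 0.09), with no call without the library block (adjusted p = 0.0785), and Zfp42 was 0.73 below it (SE 0.10, 95% interval -0.94 to -0.53). The farthest, Triml1, named after its value was seen, had 1.34, which placed Zfp42 1.71 below it (95% interval -1.89 to -1.52). These differences between genes do not depend on the zero of the scale.

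Nanog lies among other genes of ES cells and of early embryos. Dppa3, a maternal-effect gene 81.1 kb away on the same strand, had a ratio of -1.72 (SE 0.35), so Nanog was 1.38 above it (95% interval 0.67 to 2.08). Slc2a3, a glucose transporter gene 94.2 kb away on the other side, was higher from 129 (0.44, SE 0.06), and Nanog was 0.79 below it (95% interval -1.02 to -0.55). Nanog thus stood between neighbours called in opposite directions. Tfcp2l1 stood above both its nearest neighbours, by 0.26 (95% interval 0.12 to 0.40) against Clasp1, a microtubule-binding protein gene, and by 0.28 (0.16 to 0.39) against Gli2, a Hedgehog effector. Both were called as higher from cas, at -0.26 and -0.27, but stood at 0.07 and 0.05 with 1 shared library size and had no call without the library block (adjusted p = 0.0868 and 0.0505).

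The nearest neighbours of the other factors lay on either side of them. Klf2 was 0.65 below Ap1m1 (95% interval -1.15 to -0.14) and 0.18 below Eps15l1 (-0.44 to 0.07), both genes of clathrin-linked transport. Library 2 carried both, since Klf2 minus Ap1m1 was -0.34 in library 1 and -0.95 in library 2, and Klf2 minus Eps15l1 was 0.06 and -0.42. Klf4 was 0.44 above Gm12510 (-0.08 to 0.96), which itself was higher from cas (-0.81, SE 0.26) until the library block was left out (adjusted p = 0.0752). That step too was in library 2, at 0.83, against 0.04 in library 1. Esrrb was 0.42 above 4732487G21Rik (0.05 to 0.79) and 1.38 below Vash1 (-2.30 to -0.45), a tubulin carboxypeptidase gene. Pou5f1 was 1.94 below H2-Q10 (-3.41 to -0.48), a histocompatibility gene of a family with near-identical members whose 93 reads are uncertain, and 0.20 below Tcf19 (-0.97 to 0.56), a difference of -1.01 in library 1 and 0.60 in library 2. None of the 6 neighbours of Tbx3 was called, and Tbx3 differed from Tbx3os2 by -0.09 (-1.13 to 0.95), with 0.96 in library 1 and -1.14 in library 2. Of the 7 neighbours of Sox2, 3 were higher from 129 and none from cas, and Gm3143 had -0.13 without a call.

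**Figure D4:**
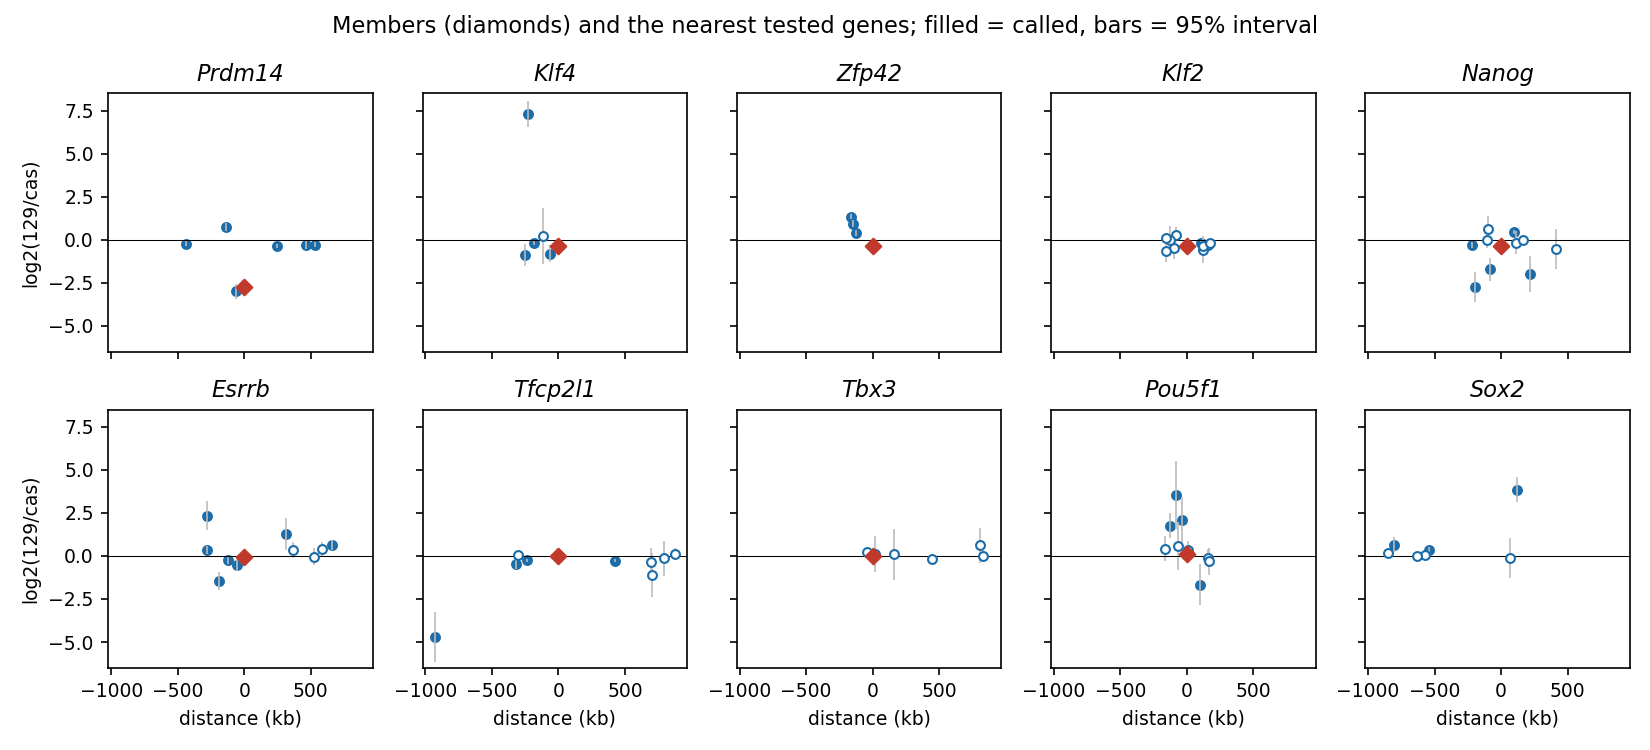
The log2 ratio of 129 to cas (vertical axis) of each factor (red diamond) and of up to 5 tested genes on each side (circles, filled where called, with 95% intervals) against the distance of their starts in kb. Prdm14 has 1 neighbour near its own ratio of -2.77, at -3.0, and all 3 neighbours of Zfp42 lie above it; Sox2 has no ratio.

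Other genes of the pluripotency network, 39 in number, went both ways. Of 19 cofactors and signalling factors, 18 were tested (Zfp143 was listed at 0), with 7 higher from cas and 1 from 129 and a median ratio of -0.16. Among those with most reads, Rif1, a telomere and replication timing factor, had -0.14 (SE 0.04, adjusted p = 0.00146), Tcf7l1, a repressor of Wnt targets, had -0.09 without a call, and Nr5a2, a nuclear receptor that can stand in for OCT4 in reprogramming, was higher from 129 with 0.40 (SE 0.06). The call for Rif1 ended without the library block (adjusted p = 0.556), and Rif1 and Tcf7l1 turned positive with 1 shared library size (0.19 and 0.24). Mycn, a Myc-family factor, was higher from cas with -1.12 (SE 0.17) and gave 36.5% ± 1.81 of its reads from 129 (SD, n = 2).

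Of 20 targets and markers, all were tested, with 6 higher from 129 and 6 from cas and a median of 0.05. Jarid2, a Polycomb cofactor and the most read of them, was higher from cas (-0.46, SE 0.03), as was Dppa3. The methylcytosine dioxygenase genes Tet1 and Tet2 were higher from 129, with 0.74 (SE 0.04) and 0.12 (SE 0.05), the second call ending without the library block (adjusted p = 0.409). Tet1 lies on chromosome 10, and the tested genes listed on either side of it, Ccar1 (0.26) and Slc25a16 (0.72), were also called from 129. Whether the ratio is particular to Tet1 was not tested. Dppa5a, an RNA-binding protein gene of ES cells, and Spp1, a secreted phosphoprotein gene, had 0.79 (SE 0.10) and 0.74 (SE 0.08), and Spp1 differed between the libraries, with 0.45 in library 1 and 1.03 in library 2. In all, 7 of the 38 tested were called as higher from 129 and 13 as higher from cas, against 21.9% and 22.0% of all tested genes. This split also turned with the zero of the scale: it was 19 from 129 and 6 from cas with 1 shared library size, 11 and 10 with deposited column totals, and 4 and 8 without the library block.

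**Figure D5:**
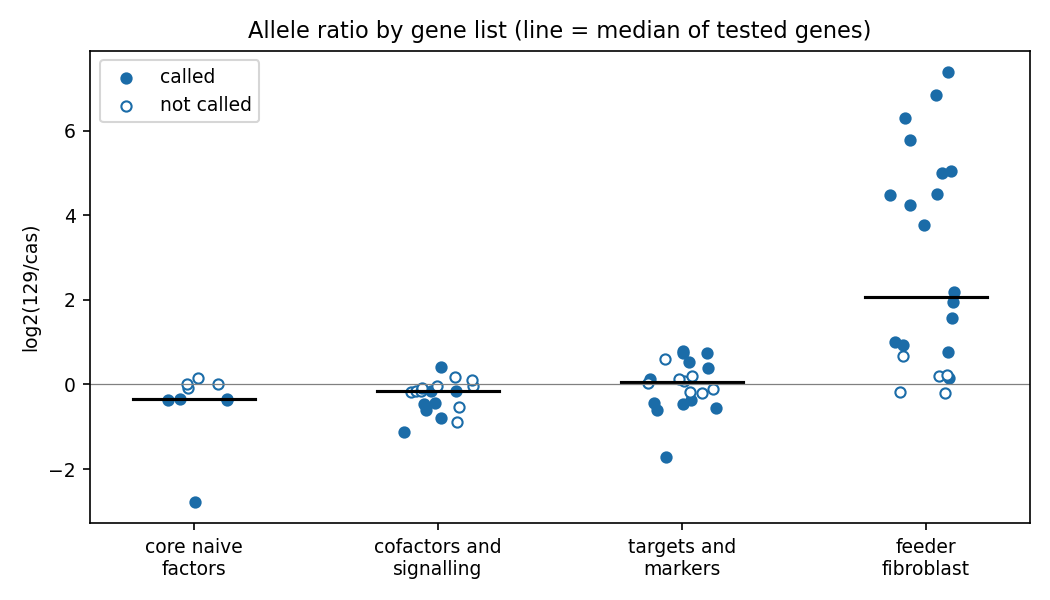
The log2 ratio of 129 to cas of each tested gene in 4 lists, filled where called, with the median as a line. The core factors have a median of -0.35 and the feeder fibroblast genes one of 2.06.

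The nuclear RNA may hold that of the feeders, and in bulk RNA fewer cells of a type and less RNA per cell cannot be told apart. Of 30 fibroblast markers, 29 had a row and 22 were tested, of which 17 were higher from 129, none from cas and 5 not called, with a median ratio of 2.06. The summed reads of the markers were 41673 and 50225 from 129 against 21371 and 22129 from cas, a 129 share of 66.1% and 69.4%. The fibronectin gene Fn1 alone gave 24172 and 25769 of those from 129 and 18033 and 17654 of those from cas. S100a4, Lum, Timp1 and Twist1 were listed at 0. Fibronectin (Fn1), the most read, had 0.16 (SE 0.04), with a call that ended without the library block (adjusted p = 0.317), the hyaluronan receptor Cd44 had 4.48 (SE 0.09), and the matrix genes Bgn and Tnc, with 1 and 3 cas reads in library 1, had 7.38 (SE 0.58) and 6.85 (SE 0.55), fitted values that depend on the pseudocount. The feeder markers thus leaned toward 129. The summed reads of the core factors had a 129 share of 52.7% in library 1 and 53.0% in library 2, near the 53.6% and 54.2% of all allele reads. Most of the summed reads were from Esrrb (39780 and 38740) and Tfcp2l1 (25281 and 24775). The sum therefore says little of the other factors, and Prdm14 stood at 11.8% and 19.97%. Fibroblasts are known to express Klf4, and the part of feeder RNA in the factors' reads was not tested.

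Markers of other cell states were also read. Of 10 primitive endoderm genes, 7 were tested, with 4 higher from 129 and none from cas, and the list summed to 74.9 and 98.7 CPM of all allele reads. The 4 were Pdgfra (4.38), Cubn (4.15), Hnf4a (1.59) and Amn (1.39). Dab2, Gata4 and Gata6 had no call, and Sox17, Sox7 and Foxa2 had too few reads for the test. Whether these reads came from endoderm-like cells, ES cells or feeders was not tested. Of 8 genes of the primed epiblast, 6 were tested, with 1 higher from 129 and 3 from cas, and the list summed to 323 and 299 CPM. Most of that sum was Lef1, with 2143 and 2031 of 3017 and 2936 reads from 129. From cas Lef1 gave 5296 and 5394 of 6195 and 6456. The calls in both lists stand beside 21.9% of all tested genes higher from 129 and 22.0% from cas. All core factors but Sox2, the defining markers of ES cells, were detected in both libraries.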

How the data were processed

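Strand-specific total nuclear RNA libraries were sequenced as 100 bp paired-end reads, and earlier libraries were sequenced again and merged, per the labels' protocols. Bowtie2 and mm10 are named in the submitters' processing notes, without a version; the sources name no counting program, SNP set or annotation. The authors deposited RPKM values, while the header names them counts: value times row length in kb summed to 999966.7 to 999996.2 in every column, and 100.0% of values were whole multiples of 1 read (tolerance 0.01 read). The deposited lengths do not match the genes beside them (67 of 48550 rows within 2 bp of the annotated span), which cancels within a gene. Whole reads were recovered, 13223268 to 17006241 per allele column, and 46410 rows were matched to GENCODE mouse release M21.

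Reads were scaled to CPM by trimmed means of M values (TMM), and log2(CPM + 0.1) was tested with limma 3.58.1 in R 4.3.3 with a trended prior variance, in a model of allele with a library block, adjusted over all tested genes. The pseudocount understates ratios of genes with few reads. Genes needed 20 allele reads in each library, and 1570 Y rows were left out. The block pairs the alleles because 1 RNA sample gives both columns of a library; the columns' deviations correlated at 0.09. limma estimated an infinite prior, so genes of like abundance share 1 spread. Differences between genes carry SEs combined from both fits. Exact (Clopper-Pearson) 95% intervals cover counting error only, as reads are not independent molecules. The code was tested on simulated data. Near-identical copies were sought with blastn 2.17.0 among annotated pseudogene transcripts (90% identity over 200 bp). The members and lists were chosen with earlier results of these data known. Named genes were all members, per role group of the network list the 3 with most reads, over that list the 2 called ones of largest ratio in each direction, the 2 most read and most extreme feeder genes, and each member's nearest tested neighbour on each side. Other genes, such as those beside Tet1 and those of the primitive endoderm, were named after their values were seen.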

Additional observations from a re-analysis of the deposited data

How the results depend on the processing

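Prdm14 stayed higher from cas under every alternative with a test. The other results moved mainly with the zero of the scale and the library block.

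With 1 shared library size, 6501 genes were called from 129 and 1492 from cas (3402 and 3407 as reported), with 3 and 1 core factors, 19 and 6 other network genes and 30 and 7 neighbours. The median over the core factors was then -0.02, with Nanog at -0.02, Klf2 at -0.02, Klf4 at -0.05 and Zfp42 at -0.03, none of them called. Tfcp2l1 (0.33), Tbx3 (0.34) and Esrrb (0.25, opposite in sign to the reported value) were called from 129. Rif1 (0.19), Tcf7l1 (0.24), Gm3143 (0.18), Clasp1 (0.07), Gli2 (0.05) and Eps15l1 (0.16) also changed sign, by construction, since the median of all genes moved by 0.32. With deposited column totals 1 core factor was called from 129 and 3 from cas, 11 other network genes from 129 and 14 neighbours from cas, with Nanog at -0.24 and Klf2 at -0.25 without a call, Tfcp2l1 at 0.11 with one, Esrrb at 0.02 and Tcf7l1 at 0.01. Of all calls, 61.9% were then from 129, against 50.0% as reported and 81.3% with 1 shared library size. The exact binomial test called 6781 of the 15509 genes, 4143 from 129 and 2638 from cas. Of the core factors it called 1 from 129 and 4 from cas, and of the neighbours 19 and 13. Klf2 stood at -0.25 without a call, Tfcp2l1 at 0.11 with one, Esrrb at 0.02 and Tcf7l1 at 0.01.

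With no replicate block, so that the alleles of a library were not paired, 3953 genes were called in all, 2149 from 129 and 1804 from cas. Of these 1 was a core factor, from cas, 12 were other network genes, 4 from 129 and 8 from cas, and 20 were neighbours, 8 of them from cas. Nanog (-0.35), Klf2 (-0.35), Klf4 (-0.38) and Zfp42 (-0.36) then had no call. From 1 library alone, where calls use the binomial test, 5471 to 6076 genes were called from 129 and 9128 to 10273 in all. The same held 1 to 3 core factors, 12 to 15 other network genes and 27 to 28 neighbours from 129. The median over the core factors was -0.33 in library 2 and -0.13 in library 1. Other filters and pseudocounts changed no call of a core factor. Where no construction is named, the cause was not tested. Depth limits Pou5f1 most, and Sox2 cannot be read at all.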
